A study of Homo sapiens with 6 samples.

Results

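The 10 genes described here encode inflammatory chemokines and cytokines (CXCL1, CXCL2, CXCL3, CXCL5, CXCL6, CXCL8, CCL2, CCL20, IL6 and LIF). They are 10 of the 19684 genes with an Ensembl identifier that the libraries list, and were found by their symbols. The choice rested partly on measured values, since CXCL6 and CCL20 were selected on being near 0 in the libraries and expressed in a second table, so that contrast is given as a description without a test. All RNA came from K1, an established human cell line derived from a papillary thyroid carcinoma, which is a cancer of the hormone-producing follicular cells. The cells had been transfected with a negative control siRNA (NC, 3 libraries) or with an siRNA against NEAT1_2, the long transcript of the NEAT1 locus and the scaffold of nuclear paraspeckles (si-NEAT1_2, 3 libraries). Both groups therefore carried an siRNA and the transfection reagent, Lipofectamine 2000, and they had a single cell line in common. Nothing states that the replicates came from separate cultures, so the p-values measure only the spread between these libraries. NEAT1 was not analysed here, and the knockdown is known from the labels alone. In RNA from whole cultures, fewer expressing cells and less RNA per cell cannot be told apart.

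CXCL1, CXCL2, CXCL3, CXCL5, CXCL6 and CXCL8 are small secreted proteins that attract neutrophils through the receptors CXCR1 and CXCR2. CCL2 attracts monocytes through CCR2, and CCL20 attracts lymphocytes and dendritic cells through CCR6. IL6 and LIF act through receptors that share the subunit gp130 (gene IL6ST), below which JAK kinases and STAT3 carry the signal. In epithelial cells, genes of this kind are typically low at rest and are induced within hours by IL-1 or TNF through NF-kB, AP-1 and C/EBP factors. Their mRNAs are short-lived when the 3′ untranslated region holds AU-rich elements, which recruit decay factors such as ZFP36.

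The 6 CXC genes lie on chromosome 4 of GRCh38, between 73740506 and 74099293, a span of 358.8 kb (GENCODE release 29). CXCL8 (73740506 to 73743716), CXCL6 (73836497 to 73849064) and CXCL1 (73869393 to 73871242) are on the plus strand. CXCL5 (73995642 to 73998779), CXCL3 (74036589 to 74038807) and CXCL2 (74097035 to 74099293) are on the minus strand. Each of these 6 has 4 exons in the transcript used. CCL2 is on the plus strand of chromosome 17 (34255218 to 34257203), CCL20 on the plus strand of chromosome 2 (227805739 to 227817564), IL6 on the plus strand of chromosome 7 (22725884 to 22732002) and LIF on the minus strand of chromosome 22 (30240447 to 30246851).

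The promoters are shown because nearly all members share one element at nearly one distance from the RefSeq start. RefSeq promoters of build GRCh38.p14, from 250 bases before to 50 bases after the start of each gene, were found for 8 of the 10 members (CCL2 and LIF had no entry). They were searched on both strands for GGNNTTTCC, a 9-base form of the site bound by NF-kB. All 8 held it, against 6.26% of the 35116 promoters in the table, and CXCL1, CXCL2 and CXCL3 each held a second copy, which 0.296% of promoters do. The bases around the motif are nearly alike among CXCL1, CXCL2 and CXCL3, and between CXCL5 and CXCL6. The matches are thus not independent of each other. The motif is in capitals in the sequences that follow, each read 5′ to 3′ on the strand that carries it.

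CXCL1: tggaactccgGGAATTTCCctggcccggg
CXCL2: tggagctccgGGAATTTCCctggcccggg
CXCL3: tggagctccgGGAATTTCCctggcccggc
CXCL5: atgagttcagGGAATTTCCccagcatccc
CXCL6: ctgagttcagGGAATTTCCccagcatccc
CXCL8: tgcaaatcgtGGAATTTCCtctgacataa
CCL20: ttgccacatgGGGTTTTCCccattgatca
IL6: atcaaatgtgGGATTTTCCcatgagtctc

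The same 9 letters, GGAATTTCC, stood in all 6 CXC promoters, and IL6 and CCL20 had variants of them. These stretches are at chr4:73869305-73869333 for CXCL1, chr4:74099254-74099282 for CXCL2, chr4:74038749-74038777 for CXCL3, chr4:73998749-73998777 for CXCL5, chr4:73836579-73836607 for CXCL6 and chr4:73740468-73740496 for CXCL8. Those of CCL20 and IL6 are at chr2:227813753-227813781 and chr7:22727118-22727146, and the CCL20 motif is on the strand opposite to the gene. The motif began between 72 bases (IL6) and 91 bases (CXCL8) upstream of the RefSeq start. GENCODE begins several of these genes further upstream. The stretches of CXCL2, CXCL3, CXCL5, CXCL6, CCL20 and IL6 therefore lie inside the gene spans given above. The distances hold for the RefSeq starts alone. The second copy in the 3 GRO genes (CXCL1, CXCL2 and CXCL3) began 53 bases upstream in each. These stretches are at chr4:73869330-73869358 (CXCL1), chr4:74099230-74099258 (CXCL2) and chr4:74038724-74038752 (CXCL3).

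CXCL1, second copy: cgggggctccGGGCTTTCCagccccaacc
CXCL2, second copy: ccgggactccGGGCTTTCCagccccaacc
CXCL3, second copy: cggccgctccGGGCTTTCCagtctcaacc

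A match of letters is a description and not a measured binding site. The promoters with the motif include those of CXCL6 and CCL20, whose mRNAs were at or next to 0 counts in every library. All 8 promoters searched hold it, so there was no member without it to compare by level.

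**Figure D1:**
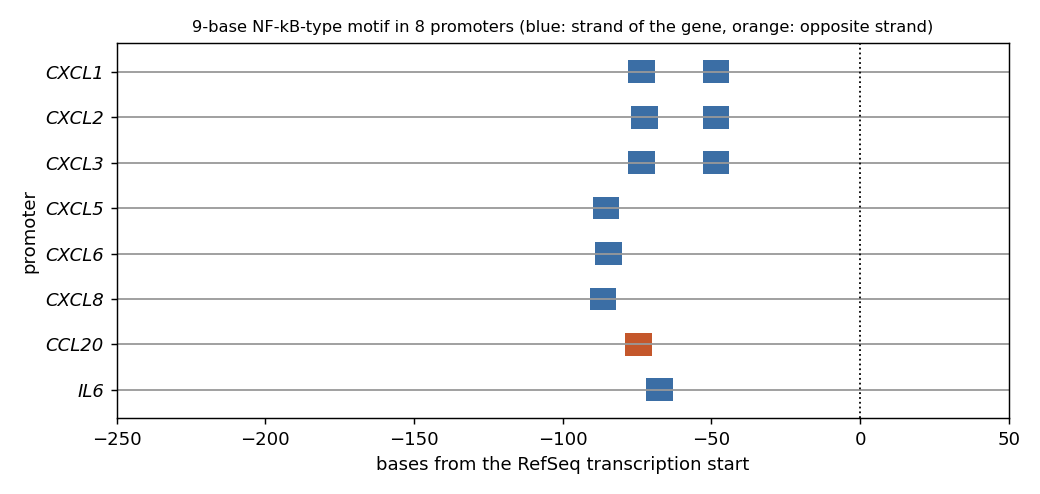
Position of the 9-base motif in the promoters of 8 members, with the distance in bases from the RefSeq transcription start on the horizontal axis and a gene per row. Blue boxes are on the strand of the gene and the orange box (CCL20) is on the opposite strand; the upstream motif begins 72 to 91 bases before the start in all 8, and the 3 GRO genes have a second one 53 bases upstream.

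The 3′ untranslated regions share a feature as well. The heptamer TATTTAT, a core of AU-rich elements (searched on the strand of the mRNA, overlapping copies counted), occurred 8 times in CXCL2, 5 times in LIF and 4 times each in CXCL1 and CXCL8. It occurred 3 times each in CXCL3, CXCL5 and IL6, once in CCL20, and 0 times in CXCL6 and CCL2. At least 3 copies were present in 7 of the 10 members, against 5.29% of the 18903 genes searched. This share takes no account of length. The median region had 875 bases, and those of LIF, CXCL5 and CXCL8 had 3204, 1995 and 1252. The regions of CXCL1, CXCL2, CXCL3 and IL6 were shorter than the median. CCL2 thus differed from the other well-expressed members in having no such heptamer, and its region was the shortest, at 376 bases.

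The libraries held between 22798631 and 27066025 expected counts each. The members took 0.0252% to 0.0295% of them, or 5737 to 7403 counts per library. The deposited values were an expected count and an FPKM (fragments scaled for gene length and library size), which allows levels to be compared between genes. Counts were also scaled to CPM, the count relative to library size, with TMM factors for the comparison between groups, where means are given ± SD (n = 3 libraries). The cell line label was checked with markers. PAX8, a transcription factor of follicular cells, had 113 to 169 FPKM and the keratin KRT8 had 1149 to 1586. Of the other epithelial markers, KRT7 and KRT18 had means of 775 and 463 FPKM, but EPCAM had 1.49, KRT19 0.408 and CDH1 (E-cadherin) 0.198. Among thyroid markers, NKX2-1 and SLC5A5 had at most 3 counts in every library and TG had a mean of 2.75 FPKM. Most genes of thyroid hormone production were thus low or absent, while PAX8 and FOXE1 (mean 7.51 FPKM) were present.

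With edgeR's quasi-likelihood test, 13109 genes were tested and 0 (0%) were called higher in si-NEAT1_2 at a fold change of 2 or more with an adjusted p under 0.05. At any fold and in either direction the count was also 0 (0%), the lowest adjusted p of any gene was 0.0659, and 3165 genes had an unadjusted p under 0.05. DESeq2 called 15 genes higher and 45 lower at the same thresholds, with none of the members among them. Without si-NEAT1_2 replicate 1, edgeR called 32 higher and 184 lower. Of the 10 members, 7 passed the filter on low counts and 3 (CXCL5, CXCL6 and CCL20) did not, and 0 were called.

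The level of the members spanned from absent to well expressed. In order of mean FPKM in the NC libraries they ran CXCL1, IL6, LIF, CXCL8, CCL2, CXCL2, CXCL3, CXCL5, CCL20 and CXCL6. Neighbours whose ranges over the 3 NC libraries overlapped, and which therefore did not differ beyond their spread, were CXCL6 and CCL20. The order of IL6 and CXCL1 was close, with a highest IL6 value of 58.9 and a lowest CXCL1 value of 64.2 FPKM. Over the si-NEAT1_2 libraries the ranges of CXCL1 and IL6 still did not overlap by a narrow margin, at 60.9 against 60.6 FPKM, whereas those of LIF and CXCL8 did overlap.

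CXCL8 (interleukin 8) had the smallest p of the neutrophil chemokines tested. In NC replicates 1 to 3 its FPKM values were 19.2, 21.9 and 21.6, and those of si-NEAT1_2 were 28.5, 28.6 and 27.4. All 3 si-NEAT1_2 libraries were above all 3 NC libraries. The mean was 34.2 ± 2.37 CPM in NC and 48.9 ± 2.92 CPM in si-NEAT1_2, a difference of 42.9%. The log2 fold change was 0.52 (SE 0.13, 95% interval 0.23 to 0.80), with an unadjusted p of 0.00226 and an adjusted p of 0.170 from edgeR, so the difference did not pass the test over all genes. The exact permutation test gave p = 0.10, the smallest that 3 libraries against 3 allow. CXCL8 has a GC content of 33.4%, and with trends on GC content and transcript length removed from each library its log2 fold change was 0.80 (adjusted p = 0.0585 from edgeR).

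CXCL1 was the most abundant member and differed little. It had 64.2, 68.9 and 71.7 FPKM in the NC libraries and 60.9, 73.5 and 67.5 FPKM in the si-NEAT1_2 libraries. The groups overlapped, and both extremes of the 6 values were in si-NEAT1_2. Its log2 fold change was 0.05 (SE 0.14, 95% interval -0.25 to 0.35, adjusted p = 0.841 by edgeR), and its sign turned under 6 of the alternatives tried.

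CXCL2 had 4.34, 6.52 and 6.13 FPKM in the NC libraries and 5.51, 6.68 and 9.51 in the si-NEAT1_2 libraries. The highest value, in si-NEAT1_2 replicate 3, stood above the rest, and the lower ones overlapped. The log2 fold change was 0.42 (SE 0.25, 95% interval -0.12 to 0.96, adjusted p = 0.292 by edgeR). Without si-NEAT1_2 replicate 3 it was 0.19, and without NC replicate 1 it was 0.25.

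CXCL3 was lower still, at 1.07, 1.22 and 1.54 FPKM in NC and 1.54, 1.15 and 1.33 FPKM in si-NEAT1_2. These groups overlapped nearly completely, with a log2 fold change of 0.13 (SE 0.34, 95% interval -0.62 to 0.88). CXCL1, CXCL2 and CXCL3 are close paralogs, whose reads the authors' counting may have divided among them. In their annotated transcripts CXCL2 and CXCL3 shared 23 windows of 75 bases, 2.01% of the windows of CXCL2, and CXCL1 and CXCL2 shared 3. With the counts of the 3 genes summed before the test, the log2 fold change was 0.09 (SE 0.14, adjusted p = 0.712 by edgeR).

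CXCL5 and CXCL6, which encode a further pair of neutrophil attractants, were at the edge of detection. CXCL5 had 10, 8 and 10 counts in NC and 6, 15 and 4 in si-NEAT1_2. CXCL6 had 1 count in NC replicate 3, 1 in si-NEAT1_2 replicate 1 and 0 in the other 4 libraries. At these depths a count of 0 allows up to 0.111 to 0.132 CPM per library (3 counts), and this limit covers counting error only. For both genes the counts of the groups overlapped, and a modest difference was not detectable at this depth.

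**Figure D2:**
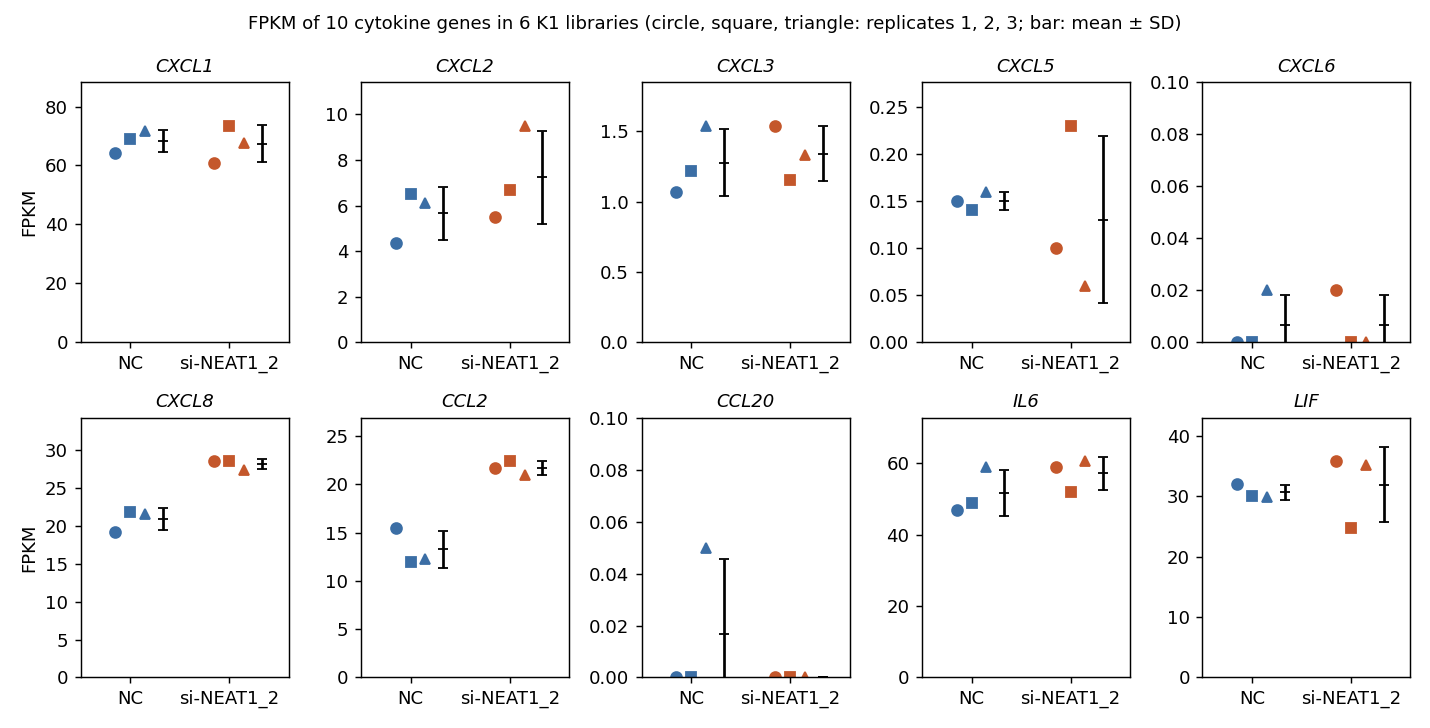
FPKM of each member on its own vertical axis, by group on the horizontal axis, with a point per library (circle, square and triangle for replicates 1, 2 and 3) and black bars for the mean ± SD of 3 libraries. CXCL8 (27.4 to 28.6 against 19.2 to 21.9) and CCL2 (21.0 to 22.4 against 12.0 to 15.5) are the expressed members whose si-NEAT1_2 points all lie above their NC points; the panels of CXCL6 and CCL20 show single counts.

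CCL2, the monocyte attractant, had the highest log2 fold change of the 7 members tested, and with the GC and length trends removed it was level with CXCL8 (0.79 against 0.80). It stood at 15.5, 12.0 and 12.3 FPKM in the NC libraries and 21.7, 22.4 and 21.0 in the si-NEAT1_2 libraries. All 3 si-NEAT1_2 values were above all 3 NC values, and NC replicate 1 was the nearest to them. The mean was 9.62 ± 1.5 CPM in NC and 16.5 ± 1.34 CPM in si-NEAT1_2, a difference of 71.1%. The log2 fold change was 0.77 (SE 0.17, 95% interval 0.39 to 1.15), with an unadjusted p of 0.000918 and an adjusted p of 0.170 from edgeR, which is not past the threshold, and its exact permutation p was 0.10. DESeq2 gave an adjusted p of 0.0149 for CCL2 and 0.0306 for CXCL8. In edgeR without si-NEAT1_2 replicate 1 the adjusted p of CCL2 was 0.0495.

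The labels carry a library code beginning with L, whose meaning they do not give and which crosses the groups, so both genes were also compared within a code. Among libraries coded L2, CCL2 averaged 8.76 CPM in the 2 NC libraries against 18.0 in the si-NEAT1_2 library, and among those coded L3 it had 11.3 against 15.6 CPM. For CXCL8 the values were 35.6 against 52.2 CPM within L2 and 31.5 against 46.9 within L3. Within L2 and L3 respectively, CCL2 was 2.06 and 1.38 times higher in si-NEAT1_2, and CXCL8 was 1.47 and 1.49 times higher. The groups of both genes did not overlap, so this direction was fixed in advance and says nothing of the code. CXCL1 (1.16 and 1.07 times), CXCL2 (1.18 and 2.23) and IL6 (1.08 and 1.24) were also higher within either code. CXCL3 (0.926 and 1.27) and LIF (0.965 and 1.04) were higher within L3 alone. The only library coded L4, si-NEAT1_2 replicate 1, has no NC partner. With the code as a covariate, which leaves that library without weight in the contrast, the log2 fold change was 0.80 for CCL2 and 0.56 for CXCL8 (adjusted p = 0.107 by edgeR for both).

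CCL20 was at 1 count in NC replicate 3 and at 0 counts in the other 5 libraries, for which the limits given for CXCL6 hold. No fold change is given for it. Its single count says nothing of a group difference.

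IL6 had 47.0, 48.9 and 58.9 FPKM in the NC libraries and 59.0, 51.9 and 60.6 in the si-NEAT1_2 libraries. NC replicate 3 lay among the si-NEAT1_2 values in FPKM and above all of them in CPM (48.6 against at most 48.0). The groups thus overlapped on both scales. The mean was 41.0 ± 6.66 CPM in NC and 47.0 ± 1.17 in si-NEAT1_2, with a log2 fold change of 0.20 (SE 0.14, adjusted p = 0.396 by edgeR). Without NC replicate 3 it was 0.33, and without NC replicate 2 it was 0.11.

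LIF had 32.1, 30.1 and 29.8 FPKM in the NC libraries and 35.8, 24.7 and 35.2 in the si-NEAT1_2 libraries. In FPKM the lowest value and the highest were both in si-NEAT1_2, whereas in CPM the lowest was NC replicate 2 (80.5). The log2 fold change was 0.03 (SE 0.13, 95% interval -0.25 to 0.31, adjusted p = 0.894 by edgeR).

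The log2 fold change was above 0 in 7 of the 7 members tested, where 50.9% of all genes tested were above 0, and its median was 0.20 against 0.01 over all genes. The 7 are not independent, as they include the paralogs, and under library totals without TMM, and with the GC and length trends removed, CXCL1 and LIF were below 0. In 2 of the 7 (CXCL8 and CCL2) the libraries did not overlap and were higher in si-NEAT1_2, against 15.4% of all genes tested. The same 2 had an unadjusted p under 0.05 with a higher level, against 11.2% of all genes. The members were chosen with results of these libraries known, so these counts are descriptions.

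Leukocytes are another source of these chemokines, and their markers were examined in the same libraries. Of 8 leukocyte markers, CD68 alone exceeded a mean of 1 FPKM. CSF3R and CD3E had at most 3 counts in every library, and PTPRC, which marks all leukocytes, had at most 4. The summed level of the 8 was 12.0 to 13.6 FPKM in NC and 15.2 to 20.1 in si-NEAT1_2, nearly all of it from CD68 (11.6 to 19.6 FPKM), a lysosomal protein that other cells make as well. Of 6 fibroblast markers, 2 exceeded a mean of 1 FPKM, and their sum was 24.9 to 29.5 FPKM in NC and 19.3 to 22.3 in si-NEAT1_2, led by LUM (16.2 to 25.0 FPKM). The 4 endothelial markers summed to at most 0.20 FPKM. The part of the CD68 and LUM differences in the results for CXCL8 and CCL2 was not tested.

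The receptors of the chemokines were at or near 0, with group means of at most 0.157 FPKM. Of 14 receptor genes listed, 5 passed the filter, all of them receptors of IL6-type cytokines, and 0 were called in either direction (2 of the 5 had a log2 fold change above 0, median -0.12, or 0.09 with the GC and length trends removed). IL6ST, the gp130 subunit that IL6 and LIF both need, had 20.4, 34.1 and 19.3 FPKM in NC and 18.5, 7.52 and 13.9 in si-NEAT1_2. In FPKM all si-NEAT1_2 values were below the NC values, with NC replicate 2 and si-NEAT1_2 replicate 2 at the extremes. Relative to library size the groups overlapped. The count of si-NEAT1_2 replicate 1 (3992) was then not below those of NC replicates 1 and 3 (4110 and 4129). Its log2 fold change was -0.68 (adjusted p = 0.179 by edgeR), and -0.11 with the GC and length trends removed. LIFR, the second LIF receptor subunit, was low, at 0.94 to 1.46 FPKM in NC and 0.30 to 0.96 in si-NEAT1_2, with a log2 fold change of -0.75 (adjusted p = 0.178 by edgeR) that was -0.18 with the trends removed. Without si-NEAT1_2 replicate 1 it was -1.14 (adjusted p = 0.0493 by edgeR), past both thresholds. For IL11RA, the IL-11 receptor, the log2 fold change was 0.72 (adjusted p = 0.176 by edgeR), and OSMR, the oncostatin M receptor, stood at -0.12.

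Below gp130, 0 of 10 signalling genes were called and 5 had a log2 fold change above 0 (median 0.02, or -0.07 with the trends removed). JAK1, one of the abundant kinases of the pathway, had a log2 fold change of -0.17. JAK2 had -0.69 and the phosphatase PTPN11 had -0.60, values that were -0.24 and -0.26 with the GC and length trends removed. Without si-NEAT1_2 replicate 1, PTPN11 had -0.82 (adjusted p = 0.0493 by edgeR). Of 7 other IL6-type cytokines, 3 were tested and 0 called (2 of them above 0, median 0.15, or 0.03 with the trends removed). IL11 was the most abundant of these at 5.41 to 6.32 FPKM in NC and 5.31 to 8.08 in si-NEAT1_2, with overlapping groups (log2 fold change 0.25). CLCF1 had -0.09 and CNTF 0.15.

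Of 26 other chemokines, 4 passed the filter and 0 were called. All 4 were low, at no more than 3.18 FPKM in any library, and had a log2 fold change above 0, with a median of 0.60 that was 0.24 by limma-trend on log2(FPKM + 1). CXCL16 had 2.14, 1.89 and 1.0 FPKM in NC and 3.03, 1.35 and 3.18 in si-NEAT1_2, which overlap. CCL26 had 0.70, 0.89 and 2.63 FPKM in NC and 2.17, 2.58 and 2.65 in si-NEAT1_2, and NC replicate 3 stood with the si-NEAT1_2 libraries. CCL28 had a log2 fold change of 0.09.

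Among 16 inducers and their receptors, 14 were tested, 0 called and 10 above 0 (median 0.18, or 0.14 with the trends removed). TNF had 9.04, 8.51 and 9.27 FPKM in NC and 9.82, 11.1 and 11.5 in si-NEAT1_2, without overlap (log2 fold change 0.34, adjusted p = 0.207 by edgeR). With the GC and length trends removed its log2 fold change was 0.06. The TNF receptor TNFRSF1A had 0.28, the IL-17 receptor subunit IL17RC had 0.34 and the kinase IRAK1 had 0.21, and these were 0.02, 0.06 and 0.01 with the trends removed.

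The listed transcription factors that act on these genes, with their inhibitors, were all tested (16 of 16), and 0 were called. Of the 16, 13 had a log2 fold change above 0, against 50.9% of all genes tested, and 6 had an unadjusted p under 0.05 with a higher level, against 11.2% (1 was lower). The median of the list was 0.31, but 0.05 with the GC and length trends removed and 0.06 by limma-trend on log2(FPKM + 1). NFKBIE, an NF-kB inhibitor that is itself an NF-kB target, had 13.4, 11.1 and 14.2 FPKM in NC and 18.5, 23.0 and 20.8 in si-NEAT1_2. These groups did not overlap, and the log2 fold change was 0.75 (SE 0.16, adjusted p = 0.170 by edgeR). CEBPD, a C/EBP factor induced in the acute-phase response, had 24.7, 23.4 and 23.4 FPKM in NC and 31.3, 37.1 and 36.7 in si-NEAT1_2. It did not overlap either, with a log2 fold change of 0.62 (SE 0.14, adjusted p = 0.170 by edgeR). The adjusted p of both was 0.0493 without si-NEAT1_2 replicate 1. With the GC and length trends removed their log2 fold changes were 0.49 and 0.25. NFKBIA, FOSL1 and JUN, the most abundant of the list, had 0.32, 0.17 and -0.02.

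The 13 listed factors that degrade or stabilise such mRNAs, through AU-rich or other elements, were all tested. Of these, 7 had a log2 fold change above 0, the median was 0.01 (-0.08 with the trends removed) and 0 were called. ZFP36L1, HNRNPD and KHSRP, the most abundant, had log2 fold changes of 0.01, 0.10 and 0.04. ZC3H12C, a relative of the nuclease regnase-1, had 2.12, 3.41 and 2.42 FPKM in NC and 2.08, 0.83 and 1.61 in si-NEAT1_2. Its log2 fold change was -0.74 (adjusted p = 0.170 by edgeR) and -0.69 with the trends removed. RC3H2, which encodes a roquin, had -0.63, and -0.10 with the trends removed.

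The mean standardised level of the 7 members tested was -0.80, -0.80 and 0.13 in the NC libraries (replicates 1 to 3) and 0.25, 0.53 and 0.70 in the si-NEAT1_2 libraries. NC replicate 3 was the NC library nearest to the si-NEAT1_2 libraries. Among 9465 other genes, the 5 most like this profile by Pearson's r over the 6 libraries were OASL (r = 0.990), GHDC (0.989), CSF2 (0.987), ZNF385A (0.985) and AP1G2 (0.984). The r values share the same libraries, depth and group difference and are descriptions. CSF2, which encodes the cytokine GM-CSF, had 6.53, 5.46 and 11.3 FPKM in NC and 13.4, 17.0 and 20.5 in si-NEAT1_2. OASL, an interferon-induced gene, had 5.21, 5.30 and 8.49 FPKM in NC and 10.4, 8.99 and 13.3 in si-NEAT1_2. Both were higher in every si-NEAT1_2 library than in any NC library, a pattern that 15.4% of all genes tested had in CPM. They were picked for likeness to a profile with that same order, so nothing is read from it.

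A second deposited table gave 1 expected count and 1 FPKM per group, without replicates, in an NC column and an SI column. Its counts summed to 17678761 (NC) and 19579897 (SI). Multiplied by 3, every FPKM above 0 in it was a whole number of hundredths (100% in both columns, tolerance 0.001 hundredths), as means of 3 values with 2 decimals are. The columns equalled the mean of the 3 deposited libraries within 0.01 FPKM in 0.120% (NC) and 0.132% (SI) of genes with at least 1 FPKM. They were therefore not the means of these libraries, and both sources are set side by side without a test.

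In this group table most of the members were far more abundant. CXCL8 had 1289 FPKM in the NC column and 6827 in the SI column, where it was the 4th most abundant gene, and CXCL1 had 1532 and 5067. IL6 had 704 and 1978, CXCL2 had 205 and 958, and CXCL3 had 42.0 and 477. The 10 members held 0.532% of all counts in the NC column and 2.13% in the SI column, against at most 0.0295% in any library. CCL20, listed at 0 in 5 libraries, had 6.98 and 263 FPKM, and CXCL6 had 5.52 and 8.34. CXCL5 was low in both sources, at 0.107 and 2.42 FPKM in the group table. LIF had 169 and 199.5 FPKM. The NC column was at least 10 times the mean of the NC libraries for 7 of the 10 members, against 3.53% of 11659 genes, a contrast that was part of the choice of members and from which nothing is read. The factor was 61.7 for CXCL8, 22.4 for CXCL1, 13.7 for IL6, 5.52 for LIF and 3.08 for CCL2, and 0.711 for CXCL5. In the SI column CCL2 was at 0.312 times the mean of the si-NEAT1_2 libraries, and CXCL5 at 18.6 times.

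**Figure D3:**
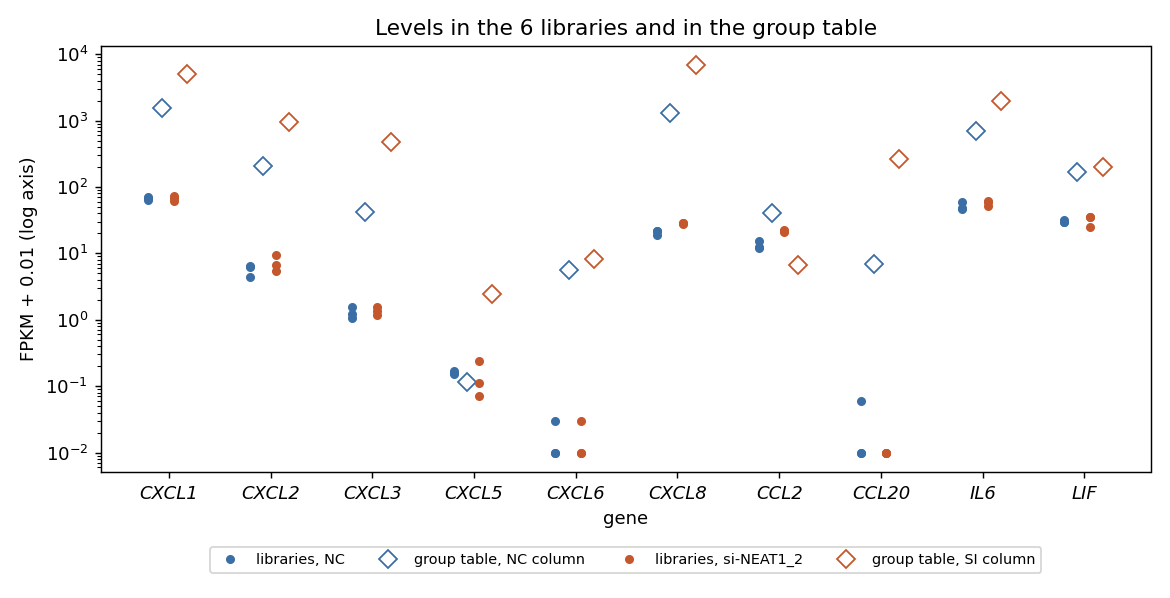
FPKM + 0.01 on a log axis for each member (horizontal axis), with filled points for the 6 libraries and open diamonds for the NC (blue) and SI (orange) columns of the group table. The diamonds of CXCL8 (1289 and 6827) and CXCL1 (1532 and 5067) are far above their library points, CCL20 and CXCL6 appear only in the group table beyond single counts, and the SI diamond of CCL2 is below its NC diamond.

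Between the columns of the group table, 7 of the 10 members were at least 2 times higher in SI, against 3.43% of the 11042 genes with at least 1 FPKM in a column. CCL20 was chosen for its level in this table, and CXCL5 reached 1 FPKM in the SI column alone, so nothing is read from this count. The members were CCL20 (37.7 times), CXCL5 (22.7), CXCL3 (11.4), CXCL8 (5.30), CXCL2 (4.68), CXCL1 (3.31) and IL6 (2.81). The ratio of CXCL5 rests on 4.33 counts in the NC column, and on the scale of log2(FPKM + 1) it was 1.63, below that of CXCL3, CXCL8, CXCL2 and CXCL1. CXCL6 (1.51 times) and LIF (1.18 times) were between the limits. CCL2 alone was lower, from 40.8 to 6.78 FPKM or 6.02 times, where 14.0% of the genes were at least 2 times lower. The median log2 ratio of FPKM + 1 was 1.68 over the members and -0.19 over all these genes. With 1 value per column there is no estimate of error for these ratios.

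CXCL8 was 1.43 times higher in si-NEAT1_2 in the libraries and 5.30 times higher in the SI column of the group table. CCL2 went opposite ways, 1.71 times higher in the libraries and 6.02 times lower in the group table, and CXCL3, which barely differed in the libraries (log2 fold change 0.13), had a log2 ratio of 3.48 in the group table. LIF differed little in both.

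**Figure D4:**
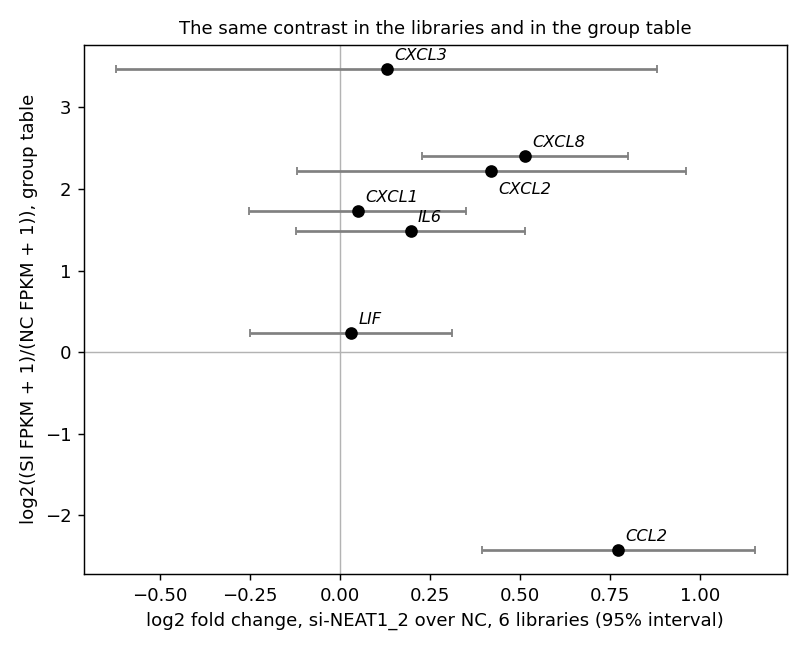
The 7 members tested, with the log2 fold change of the 6 libraries and its 95% interval on the horizontal axis and the log2 ratio of FPKM + 1 between the columns of the group table on the vertical axis. Only the intervals of CXCL8 (0.23 to 0.80) and CCL2 (0.39 to 1.15) lie off 0 on the horizontal axis, and CCL2 is the one point below 0 on the vertical axis, at -2.43.

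Other genes of the pathway also differed in level between the sources. IL1B, the inducer IL-1 beta, had 0.87 to 2.49 FPKM in the 6 libraries and 1500 and 2512 in the columns of the group table, and CCL3, a chemokine, was at 0 in 5 libraries and at 2.06 and 47.4 FPKM in the columns (both genes were chosen after their values were seen). CEBPD had 68.1 and 220.2 FPKM there and IL11 had 82.0 and 283. Markers of the cell line differed too. PAX8 had 330.0 and 157 FPKM in the columns, but the keratin KRT7, at 684 to 914 FPKM in the libraries, had 1.66 and 0.69, and LUM had 0.43 and 0.69. Of the leukocyte markers, PTPRC, CSF3R and CD3E were at most 0.0233 FPKM in the columns, while CD68 had 39.3 and 48.3 FPKM and CD14 had 5.50 and 2.93, both above their levels in every library (at most 0.27 FPKM for CD14). The sum of the 8 was 44.8 and 51.3 FPKM, and the part of these markers in the members' levels was not tested. Which cells, treatment or batch gave the group table was not tested, and the source and the difference in level cannot be told apart.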

How the data were processed

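K1 cells transfected with NC or si-NEAT1_2 siRNA (3 libraries each) were profiled by mRNA-seq. According to the study's methods, the authors mapped reads with TopHat2 and quantified genes with RSEM. The submitters' processing notes list fastp 0.18.0, Bowtie2 2.2.8, HISAT2, StringTie 1.3.1 and GRCh38 without roles. The deposited expected counts are estimates per gene, not normalized between libraries. The deposited FPKM values were scaled by the authors for transcript length and sequencing depth. The deposited group table holds an expected count and an FPKM per group. Columns of per-sample values left unmapped numbered 0.

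Expected counts were rounded, filtered with filterByExpr, scaled by TMM and tested with edgeR 4.0.16 (quasi-likelihood, R 4.3.3), adjusted by Benjamini-Hochberg over the 13109 genes tested. Genes were called at a fold change of 2 or more with an adjusted p under 0.05. The two-sided exact permutation test of CPM cannot go below p = 0.10 for 3 libraries against 3. Alternatives were library totals without TMM, other filters, DESeq2 1.42.0, limma-trend (limma 3.58.1) on log2(FPKM + 1) or log2(FPKM + 0.1), a replicate block, the L code as covariate, splines (5 degrees of freedom) on GC content and transcript length per library, and leaving out each library. The fit was tested on simulated data. The members and all gene lists were chosen with earlier results of these data known. Named genes were the members, of each context list the 3 most abundant and the 2 with the smallest p, and the 5 genes most like the members' mean profile (average log2 CPM of at least 3), except a gene that is not reported here. The 95% intervals of fold changes come from the edgeR fit and include the spread between libraries, whereas limits for counts of 0 cover counting error only. Positions and 3′ untranslated regions were taken from GENCODE release 29 and promoters from RefSeq.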

Additional observations from a re-analysis of the deposited data

Results flagged for a closer look

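CCL2 stood out because si-NEAT1_2 against NC in the libraries and SI against NC in the group table had opposite signs. Whether the 2 sources compare the same cells and treatment is not known. Its log2 fold change was 0.77 in the 6 libraries, where every si-NEAT1_2 library was above every NC library, and its log2 ratio of FPKM + 1 was -2.43 between the columns of the group table. The difference was not tested, since the group table has 1 value per group.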

How the results depend on the processing

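The counts of genes called (0 higher and 0 lower) became 0 and 1 with library totals without TMM, 9 and 9 without the filter, 15 and 45 with DESeq2, 0 and 1 by limma-trend of log2(FPKM + 0.1), 1 and 2 with the GC and length trends removed, and 87 and 126 with p unadjusted. When single libraries were omitted, 0 to 32 were higher and 0 to 184 lower, the most without si-NEAT1_2 replicate 1. Over the same omissions the median log2 fold change of the members tested ranged from 0.11 to 0.33, and 6 to 7 of them were above 0. The group table's member median was 1.98 with FPKM + 0.1 and 1.97 from CPM.

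Of 106 values of the members under alternatives, 92 kept their direction and side of the threshold, 3 passed it (CXCL8 with DESeq2, CCL2 with DESeq2 or when si-NEAT1_2 replicate 1 was omitted) and 11 turned sign. CXCL1 turned to -0.0205 without TMM, -0.0231 and -0.0234 on the scales of log2(FPKM + 1) and log2(FPKM + 0.1), and -0.0766 with the GC and length trends removed, and ranged from -0.0756 to 0.136 when single libraries were omitted (below 0 for NC replicate 1 and si-NEAT1_2 replicate 2). LIF turned to -0.0282 without TMM, -0.0053 with the L code and -0.0885 with the trends removed, and ranged from -0.0462 to 0.0795 when single libraries were omitted (below 0 for NC replicate 2 and si-NEAT1_2 replicate 3). The cause was not tested. Over all alternatives CXCL8 stayed between 0.42 and 0.80 (adjusted p 0.0306 to 0.557) and CCL2 between 0.68 and 0.89 (0.0149 to 0.557).

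The paper's methods speak of pairs of NC and si-NEAT1_2 cells, and the labels number the replicates without naming pairs. Same-numbered libraries had deviation correlations of -0.28, -0.37 and -0.01. Such correlations over all genes cannot settle whether the numbers mark pairs, and the main fit did not use pairs. With a replicate block edgeR called 0 genes (1538 had an unadjusted p under 0.05), and the log2 fold change was 0.78 for CCL2 and 0.52 for CXCL8 (adjusted p = 0.401 by edgeR for both). Depth limits CXCL5, CXCL6 and CCL20, for which at most 15 counts were seen in a library.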
